A study of Homo sapiens with 12 samples.

Results

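The probes for small nucleolar RNAs (snoRNAs), small Cajal body RNAs and ribosomal RNAs were examined in 2 diffuse large B cell lymphoma cell lines, HLY and SUDHL2, cultured at low or at atmospheric oxygen. Members were every probe of the array whose annotated symbol begins SNORD, SNORA, SCARNA, RNA18S or RNA28S. They were chosen by name and not by intensity, but the family was taken up with earlier results of the same arrays in view, so its counts are given as a description beside those of all probes. There were 307 such probes, for 303 genes, among the 47230 on the array: 178 for box C/D snoRNAs, 102 for box H/ACA snoRNAs, 24 for SCARNA genes and 3 for rRNA. The groups were HLY cells in hypoxia (1% O2), HLY cells in normoxia (21% O2), SUDHL2 cells in hypoxia (1% O2) and SUDHL2 cells in normoxia (21% O2), with 3 arrays in each. The labels name no further agent or genetic change and give no time in hypoxia. Nothing in them says that the 3 arrays of a group came from separate cultures, so p-values measure only the spread between these arrays, which may be technical. In lysates of whole cultures, fewer cells holding an RNA and less of it per cell cannot be told apart.

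Box C/D snoRNAs pair with a target RNA and direct the methyltransferase fibrillarin to methylate a ribose, whereas box H/ACA snoRNAs direct the pseudouridine synthase dyskerin to a uridine. Most of their targets lie in rRNA, and a few members, such as U3 (SNORD3), U14 (SNORD14) and U17 (SNORA73), take part in cutting the rRNA precursor. SCARNA genes encode the related guides of Cajal bodies, which direct the same modifications in the snRNAs of the spliceosome. Most human snoRNAs are not transcribed on their own: they lie in introns of host genes, many of which encode ribosomal proteins or long noncoding RNAs, and are released from the spliced intron by debranching and trimming.

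Host genes of this kind often start transcription within a run of pyrimidines, the 5′ terminal oligopyrimidine tract. The start windows of 8 hosts whose snoRNAs recur in the results are shown because their snoRNAs can be set beside the host: RPS12 and RPL4 were not called under either label, and the other 6 hosts were called under at least 1. Each window runs from 10 bases before to 20 bases from the annotated start in RefSeq on GRCh38.p14. Capitals mark a C followed by at least 4 bases that are each C or T, searched on the printed strand only. Such a run was present in 5 of the 8 windows and in 38.4% of the 35116 windows of that length in the RefSeq table (13475 windows), and a match here is a description of the letters only.
RPL13A, host of SNORD34 and SNORD35A, chr19:49487598-49487627, plus strand: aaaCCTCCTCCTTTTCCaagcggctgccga
RPS12, host of SNORD100, chr6:132814559-132814588, plus strand: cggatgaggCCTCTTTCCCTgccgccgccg
RPL13, host of SNORD68, chr16:89560647-89560676, plus strand: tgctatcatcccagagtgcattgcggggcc
RPL27A, host of SNORA3B, chr11:8682782-8682811, plus strand: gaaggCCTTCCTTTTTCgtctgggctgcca
RPL4, host of SNORD16, chr15:66504836-66504865, minus strand: cgggagtggtaagcaCTTCCTTTTCCTgtg
CWF19L1, host of SNORA12, chr10:100267619-100267648, minus strand: gcggattcgcattcccaattttaggtggca
EIF4A2, host of SNORA63, chr3:186783567-186783596, plus strand: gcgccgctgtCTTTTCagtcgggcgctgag
DKC1, host of SNORA56, chrX:154762854-154762883, plus strand: gtgcgcgggtgggtgggtcctagcagcgcg

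Across the 12 arrays the median deposited intensity ran from 111 to 149, and between 12322 and 14925 probes were detected at a detection p under 0.01. The arrays did not group by their line label. Over all kept probes, the median correlation between arrays was 0.984 for HLY hypoxia with SUDHL2 normoxia and 0.976 for SUDHL2 hypoxia with HLY normoxia, but 0.791 for hypoxia with normoxia of the same label in either line. CD79A, a chain of the B cell receptor complex, averaged 5.54 log2 units in HLY hypoxia and 12.14 in HLY normoxia, and 11.90 in SUDHL2 hypoxia and 6.49 in SUDHL2 normoxia. EPCAM, an epithelial surface protein, had the same split (4.79 against 10.22 under the HLY label and 9.78 against 4.83 under the SUDHL2 label). Of the B cell markers examined 8 of 10 were kept and PAX5 was not. Of these 8, 3 were higher and 4 lower in HLY hypoxia, and 4 were higher and 4 lower in SUDHL2 hypoxia. They thus did not all split as CD79A did, and none was called in the average or across the labels. Of the T cell, myeloid and epithelial markers the defining genes CD3D, CD3E, CD14, ITGAM and KRT8 were not kept. CD2, a T cell surface protein detected on 4 of the 12 arrays, averaged 6.19 in HLY hypoxia and 5.59 in HLY normoxia, and 5.96 in SUDHL2 hypoxia and 5.28 in SUDHL2 normoxia, and was called higher under both labels (0.60 and 0.69). Its part in the members' results was not tested. Which oxygen level or line an array came from is therefore taken as labelled. Each result is given for the hypoxia-normoxia difference under each line label, for the average of both differences, which needs no line label, and for hypoxia of one label against normoxia of the other. These contrasts share arrays and are not independent of each other.

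Detection differed by class. A probe was kept when its detection p fell below 0.01 on 3 arrays or more, as it did for 116 of the 307 member probes (37.8%, for 114 genes), against 34.5% of all probes on the array. Of the box H/ACA probes 49 of 102 were kept (48%), of the box C/D probes 58 of 178 (32.6%), of the SCARNA probes 6 of 24 (25%) and of the rRNA probes 3 of 3. A further 23 member probes were detected on 1 or 2 arrays and 168 on none, and 64 were detected on all 12. The imprinted clusters SNORD113 to SNORD116, whose expression is known mainly from brain, contributed 31 of the probes, and SNORD114-2 was the only one of them that was kept. The RNA was primed for labeling with oligo-dT from 500 ng of total RNA, and mature snoRNAs and rRNAs mostly lack a poly(A) tail. Whether a signal came from the mature RNA, from a precursor or from an adenylated form was not tested.

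The 2 probes that read highest among the rRNA probes were higher in hypoxia under both labels. The first 28S rRNA probe (RNA28SN5, ILMN_3251587) read 12.16, 11.99 and 11.26 log2 units on the HLY hypoxia arrays, against 10.81, 10.91 and 10.96 on the HLY normoxia arrays. On the SUDHL2 arrays it read 12.07, 12.21 and 12.18 in hypoxia, against 10.01, 10.33 and 11.75 in normoxia. Neither label's groups overlapped, and the SUDHL2 normoxia arrays spread the most. The log2 difference was 0.91 (SE 0.345, limma adjusted p = 0.0343) under the HLY label and 1.46 (SE 0.345, adjusted p = 0.00219) under the SUDHL2 label, and the average was 1.18 (SE 0.244, adjusted p = 0.00971). The HLY call was lost in 5 of the 12 fits that left out 1 array (largest adjusted p = 0.123, without HLY hypoxia replicate 1).

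The 18S rRNA probe (RNA18SN5, ILMN_3243593) read 12.13, 11.87 and 11.69 in HLY hypoxia, against 11.54, 11.35 and 11.49 in HLY normoxia. It read 11.66, 12.06 and 11.78 in SUDHL2 hypoxia, against 11.05, 11.21 and 11.68 in SUDHL2 normoxia, where the third normoxia array came above the lowest hypoxia array. The log2 differences were 0.44 (adjusted p = 0.0479) and 0.52 (adjusted p = 0.022), with an average of 0.48 (SE 0.127, adjusted p = 0.033). This average missed the threshold in 9 of the 12 fits that left out 1 array (largest adjusted p = 0.0791, without SUDHL2 normoxia replicate 1), the HLY difference in 7 (0.182, without HLY hypoxia replicate 1) and the SUDHL2 difference in 3 (0.104, without SUDHL2 normoxia replicate 1).

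A second 28S rRNA probe (RNA28SN5, ILMN_1733559) did not pass the test in either line. It read 9.64, 9.36 and 8.96 in HLY hypoxia, against 9.08, 9.45 and 9.46 in HLY normoxia (log2 difference -0.01, adjusted p = 0.976). In SUDHL2 hypoxia it read 9.50, 9.87 and 9.65, against 8.10, 8.41 and 9.95 in SUDHL2 normoxia (0.85, adjusted p = 0.0516). Both 28S probes carry the same symbol and differed in the HLY comparison, and the array cannot assign the signal to 1 of the near-identical rRNA gene copies.

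Both 28S probes varied widely between arrays of a group, with pooled SDs of 0.523 and 0.542 log2 units, against 0.23 for the 18S probe. The median of the 3 rRNA probes, 0.523, lay at the 99.2 percentile of all kept probes, whose median was 0.214. Box C/D probes had a median pooled SD of 0.223 and box H/ACA probes of 0.266. The third SUDHL2 normoxia array stood 1.05 above its group mean over the rRNA probes, but 0.10 over the box C/D and 0.03 over the box H/ACA probes. Its part in the rRNA results can be read from the median pooled SD without that array, which was 0.251.

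**Figure D1:**
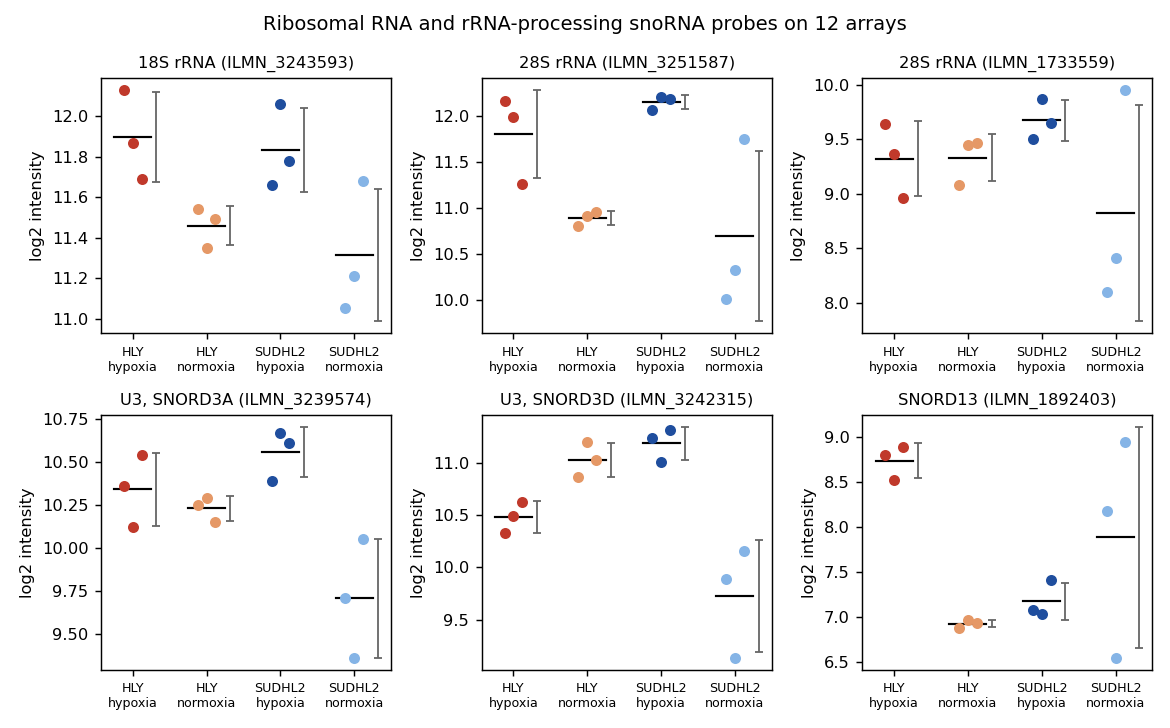
Normalized log2 intensity (y axis) of the 3 rRNA probes, SNORD3A, SNORD3D and SNORD13 on each array (points), with the group mean as a line and the SD as a bar, in the 4 groups (x axis). The 28S probe ILMN_3251587 is higher on all hypoxia arrays of a label than on its normoxia arrays, and the third SUDHL2 normoxia array is the highest of its group in all 6 panels.

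Under the line labels and with quantile normalization, box C/D probes were more often higher than lower in hypoxia in both lines, and box H/ACA probes in SUDHL2 alone. In HLY, 30 of 58 box C/D probes were higher and 7 lower in hypoxia at an adjusted p under 0.05, with a median log2 difference of 0.46. Of the 49 box H/ACA probes 8 were higher and 17 lower, with a median of -0.24. Over all 16288 kept probes 31.1% were higher and 30.3% lower, and the median was -0.01. The calls of SNORD10, SNORD60 and SNORA29 as higher rest on probes that passed the filter only through the 3 HLY hypoxia arrays. Among probes detected on all 12 arrays, 19 of 35 box C/D probes were higher and 4 lower. Of the 25 such box H/ACA probes 4 were higher and 10 lower, beside 28.3% of all such probes higher and 31.7% lower. In SUDHL2, 26 box C/D probes were higher and 7 lower (median 0.38), and 19 box H/ACA probes were higher and 4 lower (median 0.33), beside 30.8% of all probes higher and 31% lower. The SNORA29 call, lower in SUDHL2 hypoxia, compared 2 groups that were not above background on any array. Among probes detected on all 12 arrays, 17 box C/D probes were higher and 5 lower, and 11 box H/ACA probes were higher and 3 lower. Of all such probes 32.4% were higher and 27% lower. Of the 6 SCARNA probes 4 were lower in HLY hypoxia (median -0.56) and 4 were higher in SUDHL2 hypoxia (median 0.72). Centring each array on its median, in place of quantile normalization, moved the median of all probes in HLY to 0.26, the box C/D median to 0.78 and the box H/ACA median to 0.10. Relative to all probes the class medians were then 0.52 and -0.16, close to the 0.47 and -0.23 of quantile-normalized arrays. With that centring 11 box H/ACA probes were higher in HLY hypoxia and 6 lower, so that their direction in HLY depends on the scaling.

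The class means on each array gave the same picture. Box C/D probes averaged 7.38, 7.50 and 7.35 log2 units in HLY hypoxia, against 7.09, 7.02 and 7.08 in HLY normoxia, and box H/ACA probes 6.78, 6.90 and 6.79 in HLY hypoxia, against 7.05, 6.99 and 6.99 in HLY normoxia. In HLY hypoxia every array thus had the higher box C/D mean and the lower box H/ACA mean. Box C/D probes averaged 7.40, 7.28 and 7.30 in SUDHL2 hypoxia, against 6.99, 6.88 and 7.08 in SUDHL2 normoxia, and box H/ACA probes 6.99, 6.87 and 6.86 in SUDHL2 hypoxia, against 6.58, 6.60 and 6.61 in SUDHL2 normoxia. Both classes were higher in every SUDHL2 hypoxia array.

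Since probes differ in their affinity, the gap between the class means carries no meaning by itself, and only its change between groups was read. The size of such a change depends on the handling of background. Without background correction the HLY medians relative to all probes were 0.26 for box C/D and -0.12 for box H/ACA, against 0.47 and -0.23 with it. The gap was 0.59 ± 0.0222 in HLY hypoxia and 0.05 ± 0.0334 in HLY normoxia (SD, n = 3), without overlap. It was 0.41 ± 0.0197 in SUDHL2 hypoxia and 0.39 ± 0.0971 in SUDHL2 normoxia, and these groups overlapped. Set across the labels, HLY hypoxia (0.59) exceeded SUDHL2 normoxia (0.39), and SUDHL2 hypoxia (0.41) exceeded HLY normoxia (0.05), in each case on every array. These gaps are given without a test, since they sum over members.

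**Figure D2:**
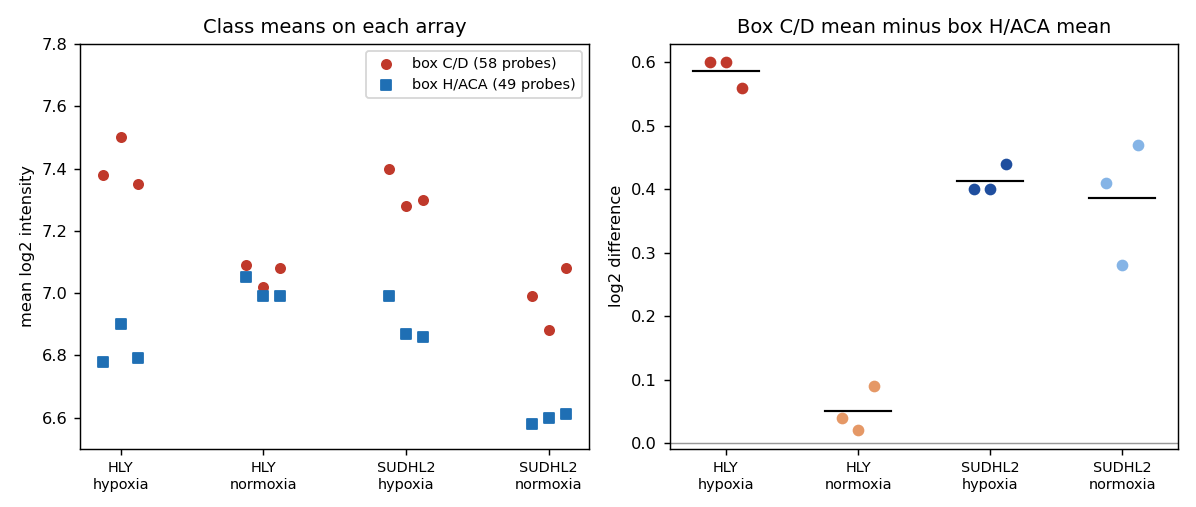
Left, mean normalized log2 intensity of the 58 box C/D and 49 box H/ACA probes on each array (points) in the 4 groups (x axis). Right, box C/D mean minus box H/ACA mean in log2 units, with group means as lines, which is lowest on the HLY normoxia arrays (mean 0.05) and highest on the HLY hypoxia arrays (0.59).

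Among the members, 12 were higher in hypoxia under both labels and none was lower under both (limma, 0 also at an unadjusted p under 0.05). Over all kept probes 0.454% were higher under both labels (74 probes) and 0.749% were lower (122 probes), against 10.3% of the 116 members higher. They were 9 of 58 box C/D probes (15.5%), namely SNORD34, SNORD35A, SNORD100, SNORD68, SNORD65, SNORD96B, SNORD83B, SNORD55 and SNORD14B, 1 of 49 box H/ACA probes (2.04%), SNORA3B, and 2 of 3 rRNA probes. The count was 7 without HLY hypoxia replicate 1, 6 without HLY normoxia replicate 2, and 5 with arrays centred on their median. Of the 12, 8 were detected on all arrays.

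SNORD34 (U34), which guides methylation of 28S rRNA from an intron of RPL13A, read 6.69, 6.76 and 6.77 in HLY hypoxia, against 6.13, 5.84 and 5.95 in HLY normoxia. It read 6.79, 6.87 and 6.98 in SUDHL2 hypoxia, against 5.64, 6.01 and 5.92 in SUDHL2 normoxia. All 6 hypoxia arrays were above all 6 normoxia arrays. The log2 difference was 0.77 (adjusted p = 0.00022) in HLY and 1.03 (adjusted p = 1.45e-05) in SUDHL2, and the average was 0.90 (SE 0.0958, adjusted p = 9.18e-05). Against the normoxia arrays of the other label it was 0.89 (adjusted p = 0.00438) for HLY hypoxia and 0.91 (adjusted p = 0.00119) for SUDHL2 hypoxia. In each normoxia group SNORD34 was detected on 2 of the 3 arrays. Its normoxia values thus lay near background, and the sizes of these differences are not exact.

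SNORD35A, another box C/D snoRNA of RPL13A, read 7.38, 6.77 and 7.0 in HLY hypoxia, against 6.64, 6.11 and 6.67 in HLY normoxia. In SUDHL2 hypoxia it read 6.79, 7.51 and 6.86, against 5.68, 6.05 and 5.98 in SUDHL2 normoxia. The average was 0.87 (SE 0.158, adjusted p = 0.00469), and the HLY difference of 0.58 (adjusted p = 0.0366) was lost without HLY normoxia replicate 2 (adjusted p = 0.166). SNORD35A was detected on 2 of the 3 SUDHL2 normoxia arrays, so differences that use that group are not exact in size. The other RPL13A members kept were SNORD32A (0.52 in HLY, called, and 0.16 in SUDHL2, not called) and SNORD33 (0.24 and 0.42, neither called). RPL13A itself was 0.89 higher in HLY hypoxia and 0.56 lower in SUDHL2 hypoxia on the log2 scale, so that its SNORD34 and SNORD35A did not follow it under the SUDHL2 label.

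SNORD100, a box C/D snoRNA in RPS12, read 7.61, 7.77 and 7.44 in HLY hypoxia, against 6.93, 6.91 and 6.62 in HLY normoxia. It read 7.40, 7.10 and 6.98 in SUDHL2 hypoxia, against 6.40, 6.50 and 6.33 in SUDHL2 normoxia. The differences were 0.78 (adjusted p = 0.000405) and 0.75 (adjusted p = 0.000586), nearly equal in size, with an average of 0.77 (SE 0.106, adjusted p = 0.000646). SNORA33, a box H/ACA snoRNA of the same host, was 0.88 higher in HLY (adjusted p = 0.00334), while its SUDHL2 difference of 0.35 was not called (adjusted p = 0.188). RPS12 differed by -0.16 in HLY and 0.07 in SUDHL2, and neither was called. The RPS12 group means, 14.09 to 14.25, lay near the highest mean of any kept probe (14.3).

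SNORD68, in RPL13, read 7.72, 7.39 and 7.74 in HLY hypoxia, against 7.21, 7.10 and 7.12 in HLY normoxia. It read 8.05, 7.69 and 8.12 in SUDHL2 hypoxia, against 6.74, 7.11 and 7.29 in SUDHL2 normoxia, and the average was 0.69 (SE 0.119, adjusted p = 0.00331). The groups of each label did not overlap. RPL13 was 1.19 higher in HLY hypoxia and 0.45 lower in SUDHL2 hypoxia. SNORD83B, in RPL3, averaged 0.58 higher (SE 0.0999, adjusted p = 0.00339), with 0.59 in HLY and 0.56 in SUDHL2. SNORD14B, a copy of U14, was called higher in the average (adjusted p = 0.0242), a call lost without HLY normoxia replicate 2 (adjusted p = 0.0558). It was not above background on any HLY normoxia array, so its average difference is not an exact value, and it was at least 1.29-fold higher in HLY hypoxia. The related SNORD14A was 1.12 higher in HLY hypoxia and 0.74 lower in SUDHL2 hypoxia. The copies SNORD14C (0.83 in HLY, called, and 0.18 in SUDHL2) and SNORD14D (0.21 in HLY and 0.67 in SUDHL2, called) were above 0 under both labels. How the probes of the U14 copies share signal was not tested.

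SNORA3B, in RPL27A, was the 1 box H/ACA snoRNA higher under both labels. It read 7.43, 7.63 and 7.88 in HLY hypoxia, against 6.69, 6.56 and 6.79 in HLY normoxia, and 7.65, 7.85 and 7.41 in SUDHL2 hypoxia, against 6.20, 6.79 and 6.76 in SUDHL2 normoxia. Here too all hypoxia arrays were above all normoxia arrays. The differences were 0.97 (adjusted p = 0.000381) and 1.05 (adjusted p = 0.000187), with an average of 1.01 (SE 0.129, adjusted p = 0.000361). RPL27A was lower in HLY hypoxia (-0.35, adjusted p = 0.0374) and differed by 0.01 in SUDHL2 (adjusted p = 0.938). The RPL27A group means, 13.76 to 14.11, were also near the top of the signal range. SNORA3A, a near relative of SNORA3B, differed by -0.27 in HLY (not called) and was 0.98 higher in SUDHL2.

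**Figure D3:**
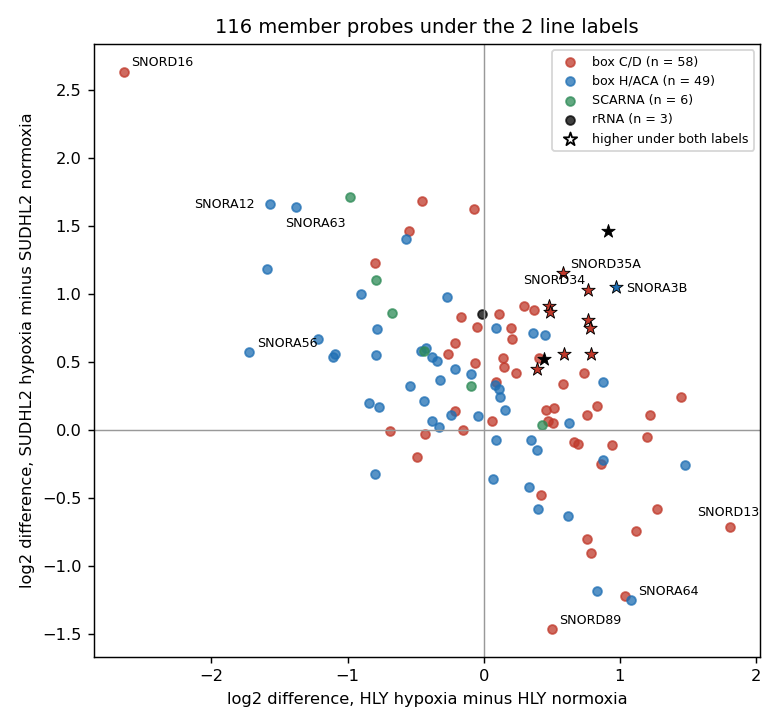
Log2 difference of each of the 116 kept member probes in HLY (x axis, hypoxia minus normoxia) and in SUDHL2 (y axis, hypoxia minus normoxia), colored by class, with stars for the 12 probes higher under both labels. SNORD16 lies far to the upper left, with -2.64 in HLY and 2.63 in SUDHL2.

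When the hypoxia-normoxia differences of both lines were averaged, 20 of 58 box C/D probes were higher in hypoxia (34.5%) and 1 was lower, with a median of 0.34. Of the 49 box H/ACA probes 6 were higher (12.2%) and 2 lower, with a median of 0.05, and 2 of the 3 rRNA probes and none of the 6 SCARNA probes were called (1 SCARNA probe at an unadjusted p under 0.05). Over all kept probes 3.32% were higher and 5.45% lower. Together 28 members were higher (24.1%) and 3 lower (2.59%). Of the 28, 6 had a group that was not above background on any array, so that their fitted averages are not exact, and 18 were detected on all 12. Among the probes detected on all arrays, 13 of 35 box C/D probes were higher and none lower (1 at an unadjusted p under 0.05), and 3 of 25 box H/ACA probes were higher and 1 lower. With arrays centred on their median 5 members were higher and none lower, while the share of all probes called then fell to 0.295% higher and 0.589% lower.

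Among snoRNAs the largest average increase after SNORA3B, SNORD34 and SNORD35A was that of SNORD99. SNORD99, a box C/D snoRNA in SNHG12, read 8.19, 7.87 and 7.95 in HLY hypoxia, against 6.67, 6.58 and 6.40 in HLY normoxia. It read 7.37, 7.04 and 7.43 in SUDHL2 hypoxia, against 6.88, 7.21 and 7.03 in SUDHL2 normoxia, which overlapped. The HLY difference was 1.45 (adjusted p = 1.37e-06), the SUDHL2 difference was 0.24 (adjusted p = 0.184), and the average was 0.85 (SE 0.107, adjusted p = 0.000329). SNORD30, in SNHG1, had the opposite division, with -0.07 in HLY (adjusted p = 0.795) and 1.62 in SUDHL2 (adjusted p = 8.2e-06). An average over the lines therefore held both members that moved under 1 label and members that moved under both.

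The 3 members with a lower average were SNORD89 (-0.48, adjusted p = 0.0323), SNORA32 (-0.56, adjusted p = 0.0336) and SNORA56 (-0.58, adjusted p = 0.0376). Their count was 0 in 5 of the fits that left out 1 array: HLY hypoxia replicate 1 or 3, HLY normoxia replicate 2, SUDHL2 hypoxia replicate 3 or SUDHL2 normoxia replicate 1. It was 1 without HLY normoxia replicate 1 or 3 or SUDHL2 normoxia replicate 2 or 3, and 5 without SUDHL2 hypoxia replicate 1.

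**Figure D4:**
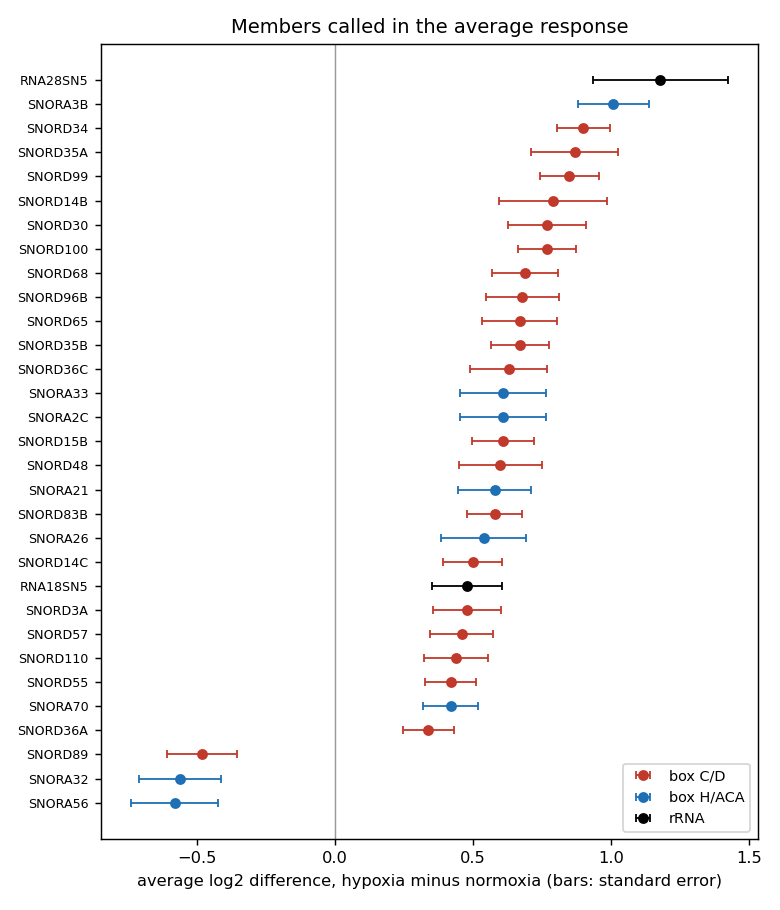
Average hypoxia-normoxia log2 difference of both lines (x axis) for the 31 members past an adjusted p of 0.05 (rows), with bars of 1 SE, colored by class. Of these, 28 are above 0, led by RNA28SN5 (1.18) and SNORA3B (1.01), and 3 are below 0.

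Set against the normoxia arrays with which they correlated best, the hypoxia arrays gave fewer calls and the same order of classes. In HLY hypoxia against SUDHL2 normoxia, 7 of 58 box C/D probes and 4 of 49 box H/ACA probes were higher, with medians of 0.46 and 0.18, and no member was lower (2 at an unadjusted p under 0.05). Those 11 members were 9.48% of the 116, beside 0.903% of all probes higher and 1.25% lower. The count was 5 without HLY hypoxia replicate 2 or 3 and 1 with arrays centred on their median. In SUDHL2 hypoxia against HLY normoxia, 11 box C/D probes were higher and 4 lower (median 0.32), while 2 box H/ACA probes were higher and 5 lower (median -0.07), beside 4.16% of all probes higher and 8.77% lower. With the rRNA probe that rose, 14 members were higher. That count was 8 without HLY normoxia replicate 1, 7 without HLY normoxia replicate 2 and 9 without SUDHL2 hypoxia replicate 2, and the count of 9 lower members was 5 or 4 without HLY normoxia replicate 2 or 3, 4 without SUDHL2 hypoxia replicate 3 and 14 without SUDHL2 hypoxia replicate 1. With arrays centred on their median no member was called in either direction.

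Other members had opposite differences under the 2 labels. There were 20 members (17.2%) lower in HLY and higher in SUDHL2 hypoxia, namely 12 box H/ACA, 4 box C/D and 4 SCARNA probes, and 10 (8.62%) with the opposite signs, namely 7 box C/D and 3 box H/ACA probes. The test of the difference between the SUDHL2 and HLY responses passed for 60 of the 116 members, against 70% of all kept probes, and the 2 kinds of opposite calls were made for 3778 (23.2%) and 3959 (24.3%) of all kept probes. The plot of the 116 members under both labels shows this as a slope downward to the right.

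SNORD16 (U16), a box C/D snoRNA of RPL4 that guides methylation of 18S rRNA, had the largest difference of all members. It read 7.76, 7.97 and 7.53 in HLY hypoxia, against 10.35, 10.39 and 10.43 in HLY normoxia, and 10.64, 10.66 and 10.24 in SUDHL2 hypoxia, against 7.61, 7.84 and 8.18 in SUDHL2 normoxia. The arrays thus fell into a high and a low level that crossed the labels as the arrays themselves did. The log2 difference was -2.64 (SE 0.172, adjusted p = 9.55e-09) in HLY and 2.63 (SE 0.172, adjusted p = 9.56e-09) in SUDHL2. Across the labels it was -0.13 (adjusted p = 0.799) for HLY hypoxia against SUDHL2 normoxia and 0.12 (adjusted p = 0.683) for SUDHL2 hypoxia against HLY normoxia. RPL4 differed by -0.06 and 0.19 under the labels, less than its snoRNA. The RPL4 group means ran from 13.39 to 13.58, near the highest mean of any kept probe (14.3). Whether differences are narrowed at that level was not tested.

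SNORA12, in an intron of CWF19L1, was not above background on any HLY hypoxia or SUDHL2 normoxia array. It read 5.49, 5.23 and 5.55 in HLY hypoxia, against 7.0, 7.11 and 6.88 in HLY normoxia, and was at least 2.40-fold lower (adjusted p = 2.68e-07). It read 6.93, 7.10 and 6.91 in SUDHL2 hypoxia, against 5.50, 5.19 and 5.25 in SUDHL2 normoxia, and was at least 2.22-fold higher (adjusted p = 1.41e-07). CWF19L1 itself was 1.54 lower and 1.62 higher on the log2 scale, in the same directions as its snoRNA.

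SNORA63 (E3), in EIF4A2, read 6.69, 7.16 and 6.99 in HLY hypoxia, against 8.33, 8.37 and 8.28 in HLY normoxia. It read 8.38, 8.05 and 8.20 in SUDHL2 hypoxia, against 6.69, 6.35 and 6.67 in SUDHL2 normoxia. The differences were -1.38 (adjusted p = 2.71e-06) and 1.64 (adjusted p = 4.45e-07), and the host differed by -0.96 and 0.50. SNORA56, in an intron of the dyskerin gene DKC1, was not above background on any HLY hypoxia array and was at least 2.60-fold lower there than in HLY normoxia, where it read 7.10, 7.02 and 7.21. In SUDHL2 it was 0.57 higher in hypoxia (adjusted p = 0.0403), a call lost in 7 of the fits without 1 array (largest adjusted p = 0.177, without SUDHL2 normoxia replicate 3). DKC1 differed by -1.02 and 1.15.

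Of the SCARNA probes, SCARNA9 read 6.26, 6.20 and 6.13 in HLY hypoxia, against 7.53, 7.27 and 6.72 in HLY normoxia (-0.98, adjusted p = 0.000266). It read 7.08, 7.28 and 7.24 in SUDHL2 hypoxia and was not above background on any SUDHL2 normoxia array, which made it at least 2.59-fold higher (adjusted p = 1.33e-06). SCARNA10, in NCAPD2, was 0.79 lower in HLY hypoxia (adjusted p = 0.00256) and 1.10 higher in SUDHL2 hypoxia (adjusted p = 0.000184). Its host ran the other way, with 1.16 in HLY and -1.65 in SUDHL2.

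Other box C/D members were higher in HLY hypoxia without being called higher in SUDHL2 hypoxia. SNORD13 (U13), which guides acetylation of 18S rRNA and is transcribed from its own gene, read 8.80, 8.52 and 8.88 in HLY hypoxia, against 6.88, 6.96 and 6.93 in HLY normoxia (1.81, adjusted p = 0.0016). In SUDHL2 hypoxia it read 7.07, 7.03 and 7.41, against 8.17, 6.54 and 8.94 in SUDHL2 normoxia (-0.71, adjusted p = 0.15). Those normoxia arrays gave it the largest pooled SD of all members, 0.631. SNORD87, in SNHG6, was 1.04 higher under the HLY label and 1.22 lower under the SUDHL2 label, and its host was 0.92 higher and 0.92 lower. SNORD80, in GAS5, was 0.79 higher under the HLY label and 0.90 lower under the SUDHL2 label, but GAS5 was not kept.

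The U3 probes, for the snoRNA needed for the first cuts toward 18S rRNA, differed from each other under the labels and were alike in the average. SNORD3A read 10.36, 10.12 and 10.54 in HLY hypoxia, against 10.25, 10.29 and 10.15 in HLY normoxia, and 10.39, 10.67 and 10.61 in SUDHL2 hypoxia, against 9.71, 9.36 and 10.05 in SUDHL2 normoxia. Only the SUDHL2 difference of 0.85 was called of these (adjusted p = 0.000702, against 0.59 for the HLY difference of 0.11). SNORD3D differed by -0.55 in HLY (adjusted p = 0.0404) and 1.46 in SUDHL2 (adjusted p = 4.52e-05), and SNORD3C by 0.74 (adjusted p = 0.0175) and 0.42 (adjusted p = 0.155). The HLY calls were lost without HLY normoxia replicate 2 for SNORD3D (adjusted p = 0.127) and without HLY hypoxia replicate 3 for SNORD3C (adjusted p = 0.0746). In the average SNORD3A was 0.48 higher (adjusted p = 0.027, lost in 9 of the fits without 1 array), and SNORD3C (0.58, adjusted p = 0.0537) and SNORD3D (0.46, adjusted p = 0.0825) were not called. The 3 differences of HLY hypoxia against SUDHL2 normoxia ran from 0.63 to 0.76 and those of SUDHL2 hypoxia against HLY normoxia from 0.16 to 0.45, none called. U3 copies are nearly identical in sequence, and how their probes share signal was not tested. The U17 probes (SNORA73A and the pair for SNORA73B) gave 1 call under the labels, SNORA73A in SUDHL2 (0.75, adjusted p = 0.0188, but 0.103 without SUDHL2 normoxia replicate 2), and SNORA61, the box H/ACA probe with the highest signal, was not called in any contrast.

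Of the 113 kept snoRNA and SCARNA probes, 108 lay within the span of another gene, 34 of them in a ribosomal protein gene and 28 in a long noncoding gene. SNORD13, SNORD3A, SNORD3C, SNORD3D and SNORA50C had no such host. For 81 the host had a kept probe, and these 81 pairs came from 55 distinct hosts. In HLY, member and host were both higher in 11 of these pairs, both lower in 7 and opposite in 4, the member alone was called in 27 and the host alone in 15. In SUDHL2 these numbers were 11, 3, 8, 23 and 9. In the average response the member alone was called in 23 pairs, both were higher in 1 (SNORD68 and RPL13), and in no pair was the host alone called. In HLY hypoxia against SUDHL2 normoxia the member alone was called in 10 pairs and the host in none. In SUDHL2 hypoxia against HLY normoxia both were lower in 4 pairs, the member alone was called in 15 and the host alone in 5. Over all kept probes 31.1% were higher and 30.3% lower in HLY, and 30.8% and 31% in SUDHL2. In the average these shares were 3.32% and 5.45%. They were 0.903% and 1.25% in HLY hypoxia against SUDHL2 normoxia, and 4.16% and 8.77% in SUDHL2 hypoxia against HLY normoxia. Members of 1 host share an intron-containing transcript and are not independent of each other.

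Several hosts carried members that differed in 1 direction under a label. Of the 6 members in TAF1D, a subunit of the RNA polymerase I selectivity factor, 5 were lower in HLY hypoxia and none higher. The 6 differences ran from -1.22 (SNORA8) to -0.44 (SNORA1, not called), whereas TAF1D differed by 0.17 (adjusted p = 0.525). In SUDHL2 hypoxia SNORA18 (0.56, adjusted p = 0.00801) and SNORA8 (0.67, adjusted p = 0.00299) were higher and TAF1D differed by -0.23 (adjusted p = 0.365). In SUDHL2 hypoxia against HLY normoxia TAF1D itself was lower (-0.92, adjusted p = 0.0138), together with 4 of its 6 members. In HLY hypoxia against SUDHL2 normoxia TAF1D differed by 0.85 (adjusted p = 0.0612), and none of its members was called. All 4 members in SNHG1 were higher in SUDHL2 hypoxia, from 0.64 (SNORD31) to 1.62 (SNORD30), together with SNHG1 (0.95, adjusted p = 0.000103). None of these 4 was called in HLY, although SNHG1 was 0.54 lower there (adjusted p = 0.00744). The 3 members in NOP56, which encodes a core box C/D protein, were all higher in HLY hypoxia, by 0.51 to 0.76, and none was called in SUDHL2. NOP56 differed by 0.21 and 0.13, neither called.

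**Figure D5:**
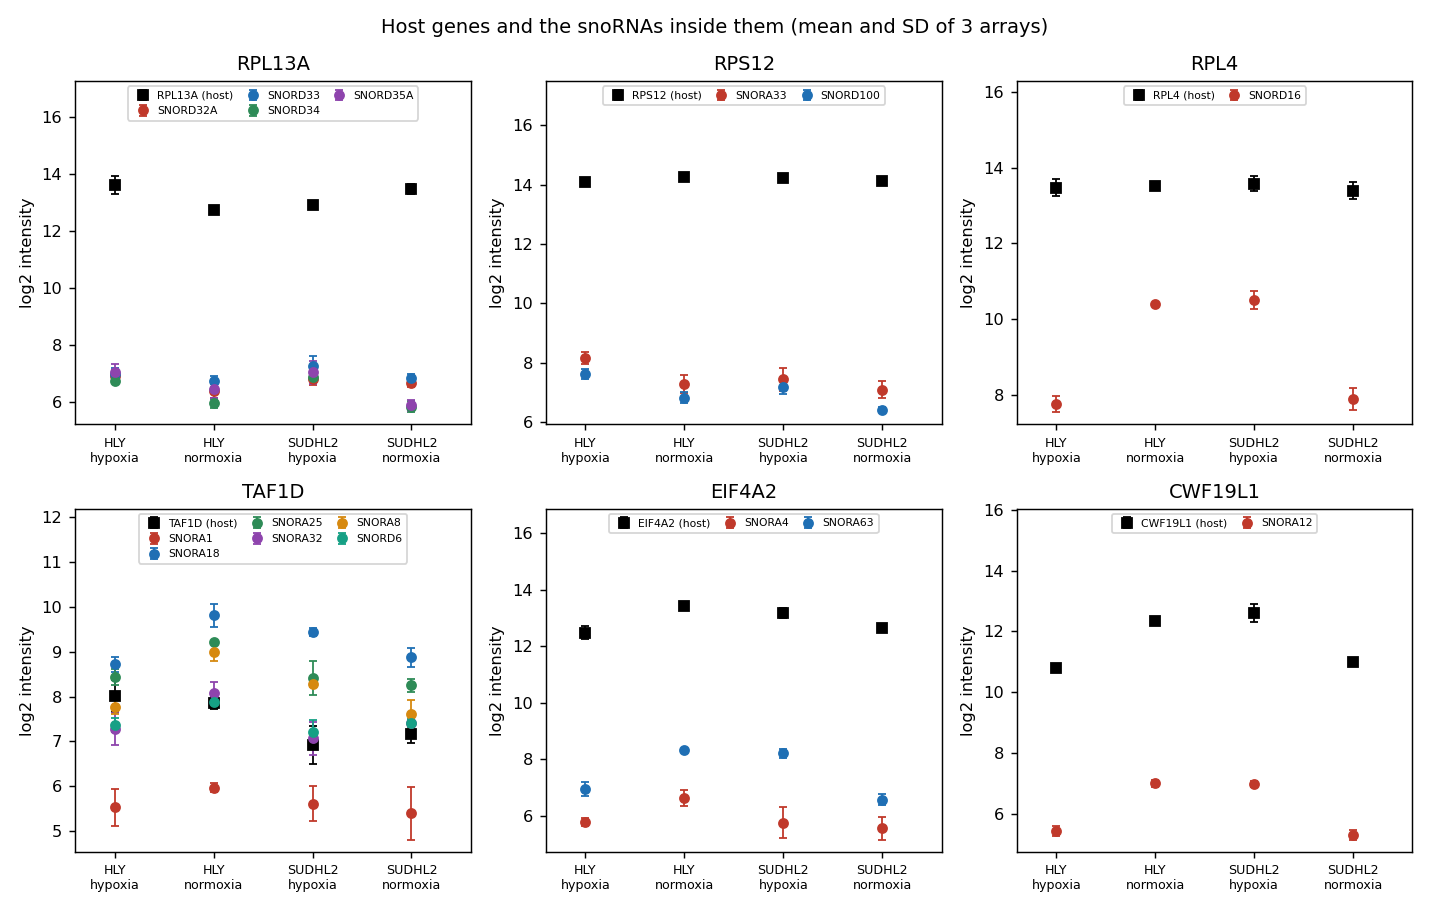
Mean normalized log2 intensity (y axis) with SD over 3 arrays for 6 host genes (squares) and the kept snoRNAs inside them (circles) in the 4 groups (x axis). Within a panel only changes between groups can be compared. SNORD16 crosses between levels near 7.76 and 10.35 while RPL4, near the top of the signal range, stays level, and SNORA12 follows CWF19L1.

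The protein partners of the 2 classes were examined as companion lists, whose counts stand beside the 31.1% of all probes higher and 30.3% lower in HLY and the 30.8% and 31% in SUDHL2. Of the 12 box C/D proteins and assembly factors 3 were higher and 5 lower in HLY hypoxia, and 3 higher and 1 lower in SUDHL2 hypoxia. Fibrillarin (FBL) was 0.73 higher in HLY (adjusted p = 0.000205) and differed by -0.21 in SUDHL2 (adjusted p = 0.176). RPAP3, a cofactor of box C/D particle assembly, was lower under both labels (-0.44 and -0.68) and in the average (-0.56, adjusted p = 0.00267). It was the 1 gene of these 12 called in the average, where 5.45% of all probes were lower. Of the 6 box H/ACA proteins 3 were lower in HLY and none higher, and 3 were higher in SUDHL2 and none lower. Among them were DKC1, with the values above, and NOP10 (-0.59, adjusted p = 0.000853, and 0.55, adjusted p = 0.00154). The median over this list was -0.23 in HLY and 0.42 in SUDHL2, beside -0.01 and 0.01 for all probes. None of the 6 was called in the average (median 0.07), in HLY hypoxia against SUDHL2 normoxia (0.07) or in SUDHL2 hypoxia against HLY normoxia (0.05).

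DBR1, the enzyme that opens the spliced intron lariat from which snoRNAs are released, was 1.26 lower in HLY hypoxia (adjusted p = 0.00121) and 0.94 higher in SUDHL2 hypoxia (adjusted p = 0.00875). Of the 10 genes for noncoding RNA trimming and decay 2 were higher and 3 lower in HLY, 3 higher and 2 lower in SUDHL2, and 1, the exonuclease XRN1, was lower in the average (-0.58, adjusted p = 0.00222). Of 19 tested genes for the RNA polymerase I machinery, which transcribes the rRNA precursor, 7 were higher and 7 lower in HLY, and 9 higher and 4 lower in SUDHL2, where about 31% of all probes were called in each direction in either line. In the average 1 was called, RRN3, the factor that recruits the polymerase (0.29, adjusted p = 0.0454). TGS1, which hypermethylates the caps of snRNAs and of U3, was the 1 gene called in the average among 5 tested for Cajal bodies and cap methylation (0.45, adjusted p = 0.0131). Of all kept probes 3.32% were higher and 5.45% lower in the average. A single call in a list this short is therefore given as a description only.

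Other short structured RNAs on the array, such as spliceosomal snRNAs and Y RNAs, had a median average difference of 0.32 over the 17 of 27 that were kept. In HLY 4 of the 17 were higher and 3 lower, beside 31.1% of all probes higher and 30.3% lower. In SUDHL2 6 were higher and 1 lower, beside 30.8% and 31%. In the average RNU11 (0.56, adjusted p = 0.0252) and RNU4-2 (0.50, adjusted p = 0.0211) were higher and RNY3 was lower (-0.41, adjusted p = 0.0413). Of all probes 3.32% were higher and 5.45% lower in the average. The median of the box C/D probes, 0.34, was close to that of these other RNAs, and that of the box H/ACA probes, 0.05, was not.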

How the data were processed

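Total RNA of HLY and SUDHL2 cells was hybridized to Illumina HumanHT-12 v4 arrays (12 arrays, 3 per group, groups from the sample labels). The authors deposited the probe intensity of each array without normalization, read with GenomeStudio 2011.1 per the submitters' processing notes, and beside it a detection p-value. The authors also deposited a z-score of the log10 intensity within each array, and recomputing this score left a largest deviation of 0.0109.

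Intensities were background-corrected from the detection p-values, quantile-normalized and log2-transformed with an offset of 16 (neqc, limma 3.58.1, R 4.3.3). A probe was kept when 3 arrays or more gave it a detection p below 0.01. One model with 4 group means (8 residual and 5.5 prior degrees of freedom) was fitted with lmFit and eBayes across all 16288 kept probes, Benjamini-Hochberg adjustment ran over all of them, and an adjusted p under 0.05 was called. The procedure was tested on simulated data. Where a group was not above background on any array, the fold is a lower bound set against the lowest signal detected on each array. No depth exists for arrays, whose number limits the precision. The 12 arrays gave no slide or scan date used here.

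The members and lists were chosen with earlier results of these data known. Text names the rRNA probes, the members with the highest signal, the largest differences per contrast, and the members called under both labels; host-related and companion genes came from lists. Probes were named by the platform table, which gave 1 symbol for 30113 probes, several for 8 and none for 17109. Hosts were the shortest RefSeq gene spanning a member, without regard to strand. A host was read from its kept probe with the highest mean signal. None of the 114 kept member symbols had a sequence in the tables used. Figures were drawn with matplotlib 3.10.9. The authors' own comparisons, pathway analysis and other assays were not used here.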

Additional observations from a re-analysis of the deposited data

Results flagged for a closer look

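The difference between the responses, SUDHL2 hypoxia minus normoxia less HLY hypoxia minus normoxia, was past an adjusted p of 0.05 for 31 of the 48 members singled out by rule (limma), beside 70% of all kept probes. The values follow in log2 units and mean that the SUDHL2 response was higher when positive. Groups of 3 arrays were too small for a search for single deviating arrays.

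Among box C/D snoRNAs the difference was positive for SNORD16 (5.27), SNORD15B (2.13), SNORD3D (2.02), SNORD30 (1.68) and SNORD3A (0.74). It was negative for SNORD13 (-2.52), SNORD87 (-2.27), SNORD89 (-1.96), SNORD36A (-1.84), SNORD80 (-1.69), SNORD38A (-1.25), SNORD99 (-1.21), SNORD35B (-1.11), SNORD104 (-0.79) and SNORD56 (-0.46).

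Among box H/ACA snoRNAs it was positive for SNORA12 (3.23), SNORA63 (3.02), SNORA70B (2.77), SNORA56 (2.29), SNORA70 (1.98), SNORA18 (1.65), SNORA25 (0.94) and SNORA67 (0.65), and negative for SNORA64 (-2.33), SNORA11D (-2.01), SNORA2C (-1.74) and SNORA84 (-0.98). The SCARNA probes SCARNA9 (2.69), SCARNA10 (1.88), SCARNA18 (1.53) and SCARNA16 (1.02) were positive. For SNORA12, SNORA56, SNORA2C, SNORA84, SNORD15B, SCARNA9, SCARNA16 and SCARNA18 a group was not above background on any array, so these fitted values depend on the offset.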

How the results depend on the processing

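Under the other processing choices, 46 calls of members singled out by rule were recomputed where their probe remained, and none changed direction. Of these, 18 missed the threshold with arrays centred on their median, 8 without a detection filter and 5 with the deposited z-scores. Leaving out 1 array changed the direction of no member call, but many calls missed the threshold in at least 1 such fit. These were 22 of 68 in HLY, 16 of 62 in SUDHL2 and 14 of 31 in the average. They were 8 of 11 in HLY hypoxia against SUDHL2 normoxia and 13 of 23 in SUDHL2 hypoxia against HLY normoxia. The box H/ACA median changed sign in HLY with arrays centred on their median (0.1, against -0.24). It also changed sign in SUDHL2 hypoxia against HLY normoxia without a detection filter (0.01, against -0.07). Centring arrays on their median moved the counts of called members the most: lower in HLY 8 (from 28), higher in SUDHL2 21 (from 51), average 5 higher (from 28) and 0 lower (from 3), HLY hypoxia against SUDHL2 normoxia 1 higher (from 11), SUDHL2 hypoxia against HLY normoxia 0 higher (from 14) and 0 lower (from 9), and 5 higher under both labels (from 12). The cause was not tested. It put the box C/D medians at 0.78 in HLY, 0.19 in SUDHL2, 0.42 in the average and 0.66 in HLY hypoxia against SUDHL2 normoxia, the box H/ACA medians at 0.1, 0.17, 0.1 and 0.39 and, in SUDHL2 hypoxia against HLY normoxia, -0.14, and the median pooled SD at 0.362 for box C/D and 0.376 for box H/ACA. All probes shifted by 0.26 in HLY, -0.08 in SUDHL2, 0.1 in the average, 0.21 and 0.02 in these contrasts. The share of higher among called members was 84.6% in HLY (58.8% with quantile normalization), 72.4% in SUDHL2 (82.3%) and 100% in the average (90.3%). Without background correction 17 members were higher in HLY hypoxia against SUDHL2 normoxia, the box C/D medians were 0.25, 0.18, 0.19, 0.25 and 0.19, the box H/ACA medians were -0.13 in HLY, 0.2 in SUDHL2 and 0.1 in HLY hypoxia against SUDHL2 normoxia, and the median pooled SDs were 0.123, 0.122 and 0.118 for box C/D, box H/ACA and SCARNA. With the deposited z-scores 18 were lower in HLY, 30 higher in SUDHL2, 1 lower in the average, 6 higher in SUDHL2 hypoxia against HLY normoxia and 5 higher under both labels. The share of higher calls was then 68.4% in HLY, 73.2% in SUDHL2 and 50% in SUDHL2 hypoxia against HLY normoxia (60.9% in the quantile-normalized fit). With probes detected on all 12 arrays only, which leaves fewer members, 25 were higher and 15 lower in HLY, 33 higher in SUDHL2 and 4 lower in SUDHL2 hypoxia against HLY normoxia. Without a detection filter 0 were lower in the average and 5 higher under both labels, and medians over all members, most of them undetected, were 0.06, 0.04, 0.05, 0.06 and 0.06 for box C/D and -0.01 in HLY, 0.09 in SUDHL2, 0.06 in HLY hypoxia against SUDHL2 normoxia and 0.01 in SUDHL2 hypoxia against HLY normoxia for box H/ACA. Leaving out 1 array at a time gave 32 to 41 higher and 20 to 28 lower in HLY, 45 to 52 and 9 to 13 in SUDHL2, 20 to 31 and 0 to 5 in the average, 5 to 13 and 0 in HLY hypoxia against SUDHL2 normoxia, 7 to 15 and 4 to 14 in SUDHL2 hypoxia against HLY normoxia, and 6 to 13 under both labels. The box C/D medians ran from 0.37 to 0.48 in HLY, 0.29 to 0.42 in SUDHL2, 0.31 to 0.4 in the average, 0.38 to 0.49 in HLY hypoxia against SUDHL2 normoxia and 0.27 to 0.35 in SUDHL2 hypoxia against HLY normoxia, and those of box H/ACA from -0.24 to -0.15, 0.27 to 0.38, 0.02 to 0.07, 0.14 to 0.22 and -0.08 to -0.06. The median pooled SD ran from 0.213 to 0.232 for box C/D, 0.232 to 0.282 for box H/ACA, 0.238 to 0.267 for SCARNA and 0.251 to 0.559 for rRNA, lowest without SUDHL2 normoxia replicate 3. The deviations of same-numbered arrays had correlations from -0.198 to 0.221, which cannot settle whether the replicate numbers pair samples. With the replicate number as a block, 38 members were higher and 28 lower in HLY. The counts were then 50 and 10 in SUDHL2 and 26 and 2 in the average. Signal over background limits some members: 6 of the 28 higher in the average had a group below it throughout.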
